A study of Mus musculus with 14 samples.

Results

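Heads of CM-Het embryos were compared with heads of Control embryos to ask what differs in the early mouse head when Mesp1-Cre removes 1 of the 2 intact copies of Twist1 from the cells it marks. Arrays were chosen by their labels, which gave 3 CM-Het and 4 Control arrays, 7 of the 14 arrays of the study. All 11394 genes with a probe detected on at least 3 of the 14 arrays were compared, each by its brightest such probe. None was chosen for its difference between the groups. Detection and brightness did choose genes and probes, and a gene could pass on the arrays of 1 genotype alone.

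The CM-Het genotype is Twist1flox/+; Mesp1Cre/+ and the Control genotype is Twist1flox/+; Mesp1+/+. In both genotypes 1 Twist1 allele is floxed and the other wild type, the age is E8.5 (5 to 7 somites), and the background mixes C57Bl/6, 129 and BALB/c. The other arrays hold CM-CKO heads (Twist1flox/del; Mesp1Cre/+, n = 4) and Het heads (Twist1flox/del; Mesp1+/+, n = 3), which add a deleted Twist1 allele to each of the genotypes above. Cre is knocked in at Mesp1, so CM-Het embryos also have 1 intact Mesp1 copy fewer than Control embryos, and Cre acts only in cells that have switched Mesp1 on. All other head cells keep both Twist1 copies. Nothing in the labels says that arrays of 1 genotype come from different embryos or litters, and pooling is not stated either. The p-values therefore reflect only how far these samples spread, which may be technical. Beadchip 1 held the CM-Het arrays and those of Het, beadchip 2 held the Control arrays with CM-CKO 1 and CM-CKO 2, and the other CM-CKO arrays were on beadchip 3. Genotype and beadchip cannot be told apart in CM-Het against Control.

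Twist1 is a basic helix-loop-helix transcription factor that pairs with E proteins and binds E-boxes in DNA. It is known for its part in the mesenchyme of the head, the loose tissue from which skull, meninges and connective tissue form, and for craniosynostosis when 1 copy is lost in humans. Mesp1 is switched on briefly in nascent mesoderm, so Mesp1-Cre marks the cranial mesoderm, the heart and much of the endothelium, while neural crest, neural tube and ectoderm lie outside its lineage. In such mixed heads fewer cells of a type and less RNA per cell cannot be told apart.

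The arrays measured a fluorescence intensity per probe, whose median was 92.3 to 112 on the 7 arrays. Between 18242 and 19455 of 45281 probes lay above background (detection p under 0.05) on a single array. The 7 arrays correlated at 0.986 to 0.994 across genes, so the values of none were a copy of another's. Whether arrays share an RNA sample cannot be told from this. The signals below are normalized and background-corrected log2 intensities, a difference of 1 is a doubling, and a gene is called where limma's adjusted p (Benjamini-Hochberg over the 11394 genes) is under 0.05. Markers of neural tube (Otx2, Sox2, Six3), head mesenchyme (Twist1, Prrx1, Foxc1), neural crest (Sox10), epithelium (Cdh1) and endothelium (Cdh5) were detected on all 7 arrays, Pax3 on 6 and Kdr on 5, while the probes of Foxd3 and Epcam were detected on 0. Heart muscle signal was uneven. The mean log2 signal of 20 heart muscle genes was 6.62, 6.53 and 6.71 in CM-Het 1 to 3, against 8.82 and 8.54 in Control 1 and 3 and 6.68 and 6.47 in Control 2 and 4. The Y-linked gene Eif2s3y was above background on 5 arrays and at background on CM-Het 2 and Control 3. Xist was detected on all 7. Its log2 signal was 9.84, 10.34 and 9.49 in CM-Het and 10.39, 9.52, 10.46 and 9.42 in Control. Arrays with Eif2s3y signal thus held Xist signal too, and whether they mix embryos of both sexes was not tested.

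Twist1 itself was lower in CM-Het heads. Its log2 signal was 8.60, 8.55 and 8.81 in CM-Het heads, against 9.55, 9.17, 9.13 and 9.41 in Control heads, and the groups did not overlap. The means were 8.65 ± 0.14 (SD, n = 3) in CM-Het and 9.32 ± 0.20 (n = 4) in Control, a 1.58-fold decrease (log2 -0.66, SE 0.11, limma adjusted p = 0.0296). The two-sided exact permutation p was 0.0286, the smallest that 3 against 4 arrays allow. The call was lost in 6 of 14 fits that each left out 1 array: without CM-Het 1, CM-Het 2, Het 2, Control 1, Control 3 or Control 4, with a highest adjusted p of 0.15 without CM-Het 1. The position of the Twist1 probe relative to the floxed segment was not analysed here. Twist2, its closest relative, had a log2 signal of 5.72, 5.64 and 5.90 in CM-Het, against 6.54, 5.71, 6.44 and 6.13 in Control, a difference of -0.45 that did not pass (SE 0.20, adjusted p = 0.292). Mesp1 and Mesp2 were detected on 0 of 14 arrays. Mesp1 therefore gives no check of the Cre label here.

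Over all genes, limma called 47 of 11394 (0.412%) in CM-Het against Control. Of these, 26 were lower in CM-Het (0.228% of genes tested) and 21 were higher (0.184%). At an unadjusted p under 0.05, 957 genes were lower (8.4%) and 847 higher (7.43%). In Het against Control, on beadchips 1 and 2 and without Mesp1-Cre but with a deleted Twist1 allele in Het, limma called 0 genes. There 723 genes were lower and 695 higher at an unadjusted p under 0.05. The signals of all CM-Het arrays lay below those of all Control arrays for 863 genes (7.57%) and above them for 787 (6.91%). The median difference over all genes was -0.02. The directions of all 47 calls were kept with each of the 14 arrays left out in turn, but no call survived every one of these fits. The number of calls was 0 without CM-Het 1, CM-Het 2 or Control 3 (1288, 1567 and 1741 genes at an unadjusted p under 0.05), 1 without Control 1, 5 without Het 2 and 6 without CM-Het 3. It was 11 without CM-CKO 4, 14 without Control 4, 16 without Het 1 or Het 3, 20 without Control 2 or CM-CKO 2, 35 without CM-CKO 3 and 59 without CM-CKO 1. Without both arrays of high heart signal, Control 1 and Control 3, limma called 0 genes (1462 at an unadjusted p under 0.05).

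The genes called lower included components and regulators of mesenchyme and its matrix. Alx4, a homeobox transcription factor of the skull vault and facial mesenchyme, was among them. It had a log2 signal of 5.58, 5.35 and 5.27 in CM-Het heads, against 6.43, 6.22, 6.65 and 6.34 in Control heads, with the highest CM-Het array 0.63 below the lowest Control array. This is a 2.01-fold decrease (log2 -1.01, SE 0.19, adjusted p = 0.0421). Col6a1, a chain of the microfibrillar collagen VI, had 5.22, 5.33 and 5.50 in CM-Het and 6.73, 6.34, 6.46 and 6.43 in Control, the widest gap of these genes at 0.84. It fell 2.21-fold (log2 -1.14, SE 0.17, adjusted p = 0.0223), and another probe of this gene read -0.86 (SE 0.15). Pcolce, which enhances the cleavage of procollagen, had 5.57, 5.60 and 5.41 in CM-Het and 6.52, 6.38, 6.03 and 6.12 in Control (log2 -0.74, SE 0.15, adjusted p = 0.0456). Col16a1, a fibril-associated collagen chain, was lower by a similar amount (log2 -0.60, SE 0.13, adjusted p = 0.0475). It falls outside the rule for named genes and was picked after its value was seen.

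Secreted, surface and actin-binding proteins were also called lower. Serpinf1, the secreted anti-angiogenic factor PEDF, had a log2 signal of 7.20, 7.47 and 7.38 in CM-Het, against 8.36, 7.89, 8.25 and 8.44 in Control (log2 -0.88, SE 0.13, adjusted p = 0.0223). A second probe of Serpinf1 read -0.39 (SE 0.16), so the size rests on the probe. Scarf2, a scavenger receptor family member whose loss causes a craniofacial syndrome in humans, had 7.58, 7.67 and 7.40 in CM-Het, against 8.48, 8.28, 8.67 and 8.27 in Control (log2 -0.88, SE 0.15, adjusted p = 0.0296). Both genes were lower on every CM-Het array than on any Control array. Lima1, an actin-bundling LIM protein, had 7.05, 7.08 and 7.36 in CM-Het and 7.93, 7.77, 7.81 and 7.65 in Control (log2 -0.62, SE 0.11, adjusted p = 0.0296). Pdlim4, a LIM protein of stress fibres, was at 9.23, 9.15 and 9.03 in CM-Het and 9.48, 9.61, 9.92 and 9.79 in Control (log2 -0.56, SE 0.12, adjusted p = 0.0456), while a second probe of it read 0.04 (SE 0.15). Without background correction, on the authors' log2 scale, the dim genes among these differed less: Col6a1 by -0.48, Alx4 by -0.42 and Pcolce by -0.31. Without Control 1 and Control 3, none of these 8 genes or Twist1 was called, and the differences of those with per-array values here were -1.04 for Col6a1, -0.87 for Alx4, -0.81 for Serpinf1, -0.73 for Scarf2, -0.72 for Pcolce, -0.64 for Twist1, -0.56 for Pdlim4 and -0.55 for Lima1.

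**Figure D1:**
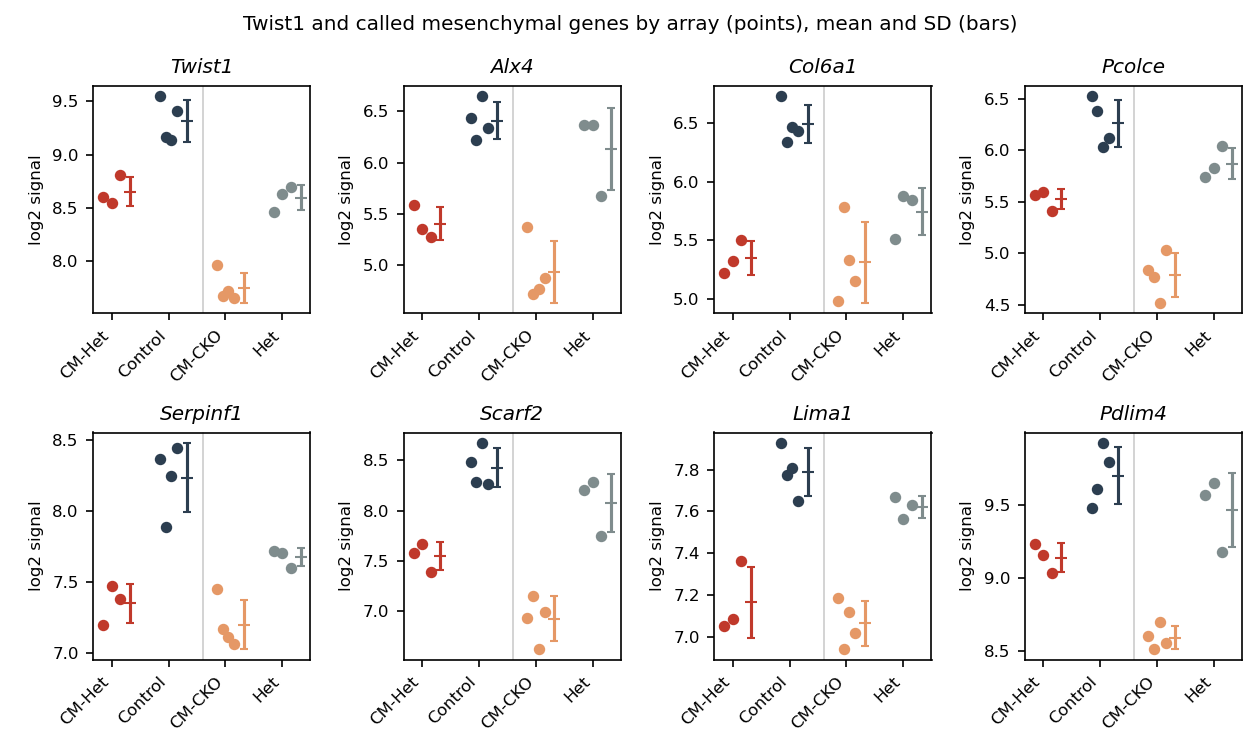
Log2 signal (y axis) of Twist1 and 7 other genes on each array (points), with mean and SD (bars). CM-Het and Control stand left of the grey line and CM-CKO and Het right of it. The 7 were picked by hand from the 26 genes called lower, as genes of mesenchyme or matrix or of secreted, surface or actin-binding proteins. For all 8 genes the 3 CM-Het arrays sit below the 4 Control arrays, and for 6 of them CM-CKO was also called below Het.

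Since Twist1 binds E-boxes, the promoters of 4 of these genes are shown with each CANNTG, the general E-box, in capitals. They were picked from the genes shown array by array as matrix or secreted factors and a surface receptor with at least 1 match in the RefSeq promoter table (GRCm38.p6, 250 bases before to 50 after the start of the gene). The Pcolce promoter lies at chr5:137611355-137611654 on the minus strand, that of Serpinf1 at chr11:75422574-75422873 on the minus strand, that of Col6a1 at chr10:76725995-76726294 on the minus strand and that of Scarf2 at chr16:17797032-17797331 on the plus strand. Each is written 5′ to 3′ in the direction of the gene.
Pcolce: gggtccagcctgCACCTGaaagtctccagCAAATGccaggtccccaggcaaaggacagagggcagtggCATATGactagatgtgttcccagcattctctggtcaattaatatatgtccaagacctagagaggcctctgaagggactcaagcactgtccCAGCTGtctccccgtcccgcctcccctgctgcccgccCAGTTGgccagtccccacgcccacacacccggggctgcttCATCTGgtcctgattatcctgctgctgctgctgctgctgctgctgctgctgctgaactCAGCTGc
Serpinf1: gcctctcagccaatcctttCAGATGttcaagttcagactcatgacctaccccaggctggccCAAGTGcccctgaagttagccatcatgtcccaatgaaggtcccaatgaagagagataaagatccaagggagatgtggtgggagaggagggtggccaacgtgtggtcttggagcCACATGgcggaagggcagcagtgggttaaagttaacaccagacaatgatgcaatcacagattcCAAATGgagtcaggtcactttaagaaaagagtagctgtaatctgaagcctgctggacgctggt
Col6a1: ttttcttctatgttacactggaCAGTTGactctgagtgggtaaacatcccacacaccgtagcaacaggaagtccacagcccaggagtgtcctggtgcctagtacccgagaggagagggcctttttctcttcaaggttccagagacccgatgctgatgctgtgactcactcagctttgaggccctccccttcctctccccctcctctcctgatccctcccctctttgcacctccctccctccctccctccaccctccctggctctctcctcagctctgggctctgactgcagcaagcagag
Scarf2: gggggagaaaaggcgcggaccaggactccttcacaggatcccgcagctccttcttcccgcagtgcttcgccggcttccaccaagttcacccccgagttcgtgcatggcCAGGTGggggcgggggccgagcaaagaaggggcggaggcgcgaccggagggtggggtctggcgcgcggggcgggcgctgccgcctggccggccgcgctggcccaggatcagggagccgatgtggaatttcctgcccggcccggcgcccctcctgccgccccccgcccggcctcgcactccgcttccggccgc

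Pcolce holds 7 matches, Serpinf1 holds 4, and Col6a1 and Scarf2 hold 1 each. CANNTG reads the same on both strands, so each match counts once. Of the 47 called genes 35 had a promoter in the table. CANNTG stood in 11 of the 22 promoters of genes called lower (50%) and in 10 of the 13 of genes called higher (76.9%), beside 63.2% of the promoters of 9213 tested genes and 72.3% of all 32851 promoters of the same length. The narrower CATCTG, or CAGATG on the other strand, stood in 4 of 22 promoters of lower genes (18.2%) and 0 of 13 of higher genes, beside 11.4% for tested genes and 17.2% for all promoters. CATATG stood in 1 of 22 and 0 of 13, beside 1.62% for tested genes and 3.91% for all promoters. These are counts of letters in short windows and show no binding.

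Mesp1-Cre was also added in the pair CM-CKO against Het, whose group means rest on other arrays than those of CM-Het and Control, with beadchips 1 and 2 entering the other way round. All 14 arrays share 1 estimate of the spread, so the calls in each pair also draw on the arrays of the other. Of the 26 genes called lower in CM-Het, 17 were lower in CM-CKO than in Het (46.7% of all genes lay below 0 there). At an unadjusted p under 0.05, 11 of the 26 were lower, against 4.04% of all genes, and 4 were higher, against 3.95%. Limma called 6 of them lower there too, against 0.176% of genes tested: Alx4 (log2 -1.21), Scarf2 (-1.15), Pcolce (-1.08), Pdlim4 (-0.87), Twist1 (-0.84) and Lima1 (-0.56). Col6a1 and Serpinf1 read -0.43 (SE 0.17) and -0.47 (SE 0.13) without passing (adjusted p = 0.502 and 0.228). The count of calls in CM-CKO against Het was 25, and 13 without Het 1 or without Het 2. The genes called lower in both pairs are thus Twist1 and 5 genes of mesenchyme, matrix or the actin cytoskeleton.

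The genes called in CM-CKO against Het give the reverse view. Of its 20 genes called lower, 15 were lower in CM-Het than in Control as well (6154 of all 11394 genes), 13 of them at an unadjusted p under 0.05 (8.4% of all genes) and 6 called (0.228%). Their median difference was -0.35 in CM-Het against Control, beside -1.05 in CM-CKO against Het. Lum, the corneal and connective tissue proteoglycan lumican, differed by -0.47 (adjusted p = 0.164), beside -2.06 in CM-CKO against Het. Ebf3, a transcription factor of head mesenchyme, differed by -0.25, beside -1.47, and Cd248, a surface protein of fibroblasts and pericytes, by -0.48, beside -1.38. Bgn, the proteoglycan biglycan, was level in CM-Het (0.02, SE 0.17), beside -1.78. Vegfc, a growth factor of lymphatic vessels, read -0.51 (adjusted p = 0.0637), beside -1.25. The difference between the 2 pairs was itself called for Lum (1.59), Bgn (1.79), Ebf3 (1.22), Cd248 (0.89) and Vegfc (0.74), with adjusted p between 0.00466 and 0.0495, though these genes were chosen on 1 of its 2 parts and a shift between beadchips 1 and 2 would add to it.

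Of the 5 genes called higher in CM-CKO against Het (0.0439% of genes tested), 2 were higher in CM-Het than in Control. Trh, thyrotropin-releasing hormone, had a log2 difference of 0.60 (SE 0.175, adjusted p = 0.129), beside 0.94 in CM-CKO against Het. Pou4f1, a sensory neuron factor, read 0.08, beside 0.80. Gdnf, a neurotrophic growth factor, read -0.07, beside 0.98, and the monooxygenase Cyp1b1 read -0.27, beside 0.96. The endosomal ATPase Vps4b read -0.57, beside 0.68. None of these 3 passed in CM-Het against Control (limma adjusted p = 0.869 for Gdnf, 0.442 for Cyp1b1 and 0.0611 for Vps4b). The difference between the pairs was called for Gdnf, Cyp1b1 and Vps4b (log2 -1.04, -1.22 and -1.25). These genes were chosen on 1 of its 2 parts, and a shift between beadchips 1 and 2 would add to it. Cyp1b1 was detected on 2 of 3 CM-Het and 3 of 4 Control arrays.

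**Figure D2:**
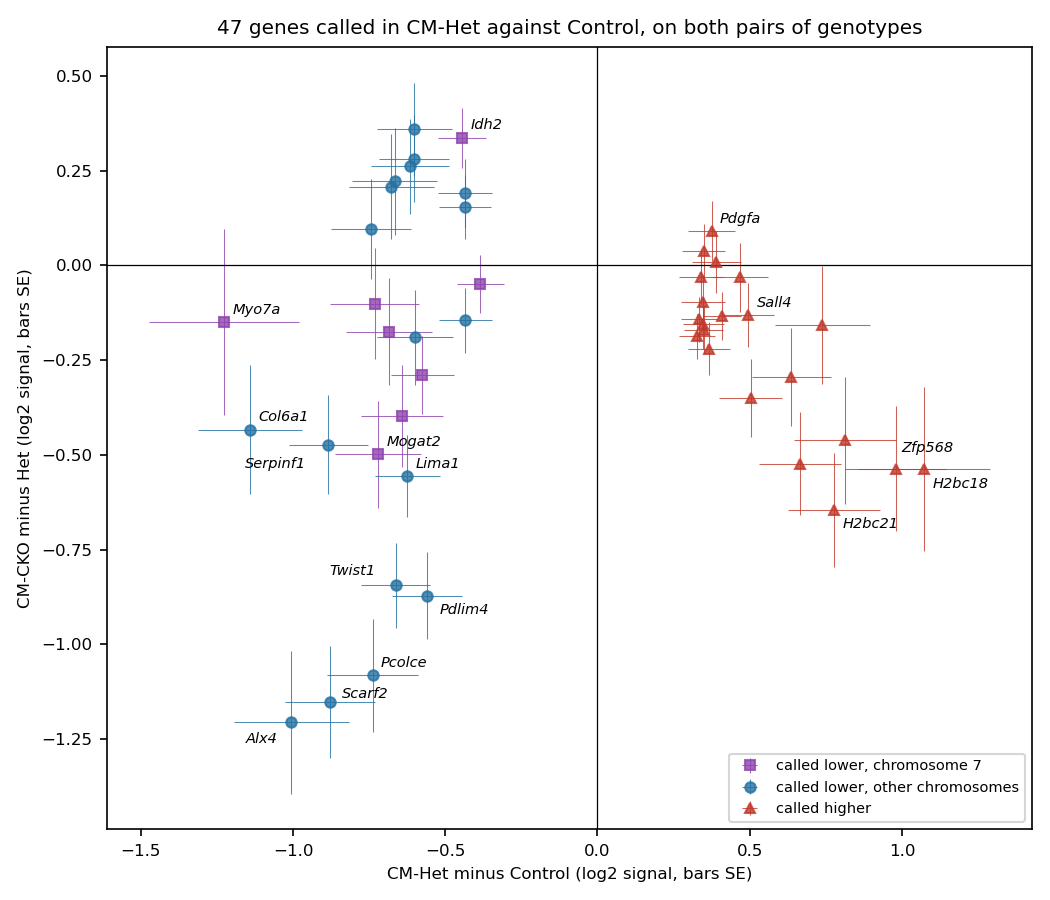
Log2 difference of the 47 genes called in CM-Het against Control (x axis) and of the same genes in CM-CKO against Het (y axis), with SE as bars and genes of chromosome 7 called lower as squares. Genes called lower in both, from Lima1 at -0.56 to Alx4 at -1.21, lie at the lower left, and 18 of 21 genes called higher lie below 0 on the y axis.

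Chromosome 7, which carries Mesp1, held 9 of the 47 called genes, 8 of them lower, while 8.10% of tested genes with a known chromosome lie on it. In the order of the RefSeq gene table, Idh2 stands 4 tested genes after Mesp1, and Tenm4, Myo7a, Mogat2, Lipt2, Coa4 and Mrpl48 stand 59 to 95 after it. Dbx1 stands 64 and Zfp568 232 before it. Mrpl48, Tenm4, Idh2 and the neighbours of Mesp1 named here fall outside the rule for named genes and were picked after their values were seen. Myo7a, an unconventional myosin of sensory hair cells, had the largest decrease of all called genes on this scale, while on the authors' log2 scale Scarf2 (-0.66) and Serpinf1 (-0.64) lay below it (-0.62). Its log2 signal was 6.17, 5.76 and 5.53 in CM-Het, against 7.17, 7.18, 7.23 and 6.60 in Control (log2 -1.23, SE 0.25, adjusted p = 0.0456). Control 4 stood apart from the other 3 Control arrays, and all CM-Het arrays lay below it.

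Mogat2, an acyltransferase of fat absorption, had a log2 signal of 8.72, 8.55 and 8.53 in CM-Het, against 9.20, 9.44, 9.13 and 9.51 in Control (log2 -0.72, SE 0.14, adjusted p = 0.0456), and a second probe read -1.07 (SE 0.21). Mrpl48, a protein of the mitochondrial ribosome, had 8.75, 8.83 and 8.82 in CM-Het and 9.22, 9.32, 9.60 and 9.37 in Control (log2 -0.58, SE 0.10, adjusted p = 0.0296), and 2 other probes read -0.50 and -0.11. Coa4, an assembly factor of cytochrome oxidase, had 8.11, 7.94 and 7.90 in CM-Het and 8.64, 8.41, 8.70 and 8.74 in Control (log2 -0.64, SE 0.13, adjusted p = 0.0475). These 3 genes read lower on each CM-Het array than on each Control array. Lipt2, a lipoyl transferase, was lower by -0.73 (SE 0.15, adjusted p = 0.0456) with -0.64 from a second probe. Idh2, the mitochondrial isocitrate dehydrogenase, was lower by -0.44 (SE 0.08, adjusted p = 0.0296), Dbx1, a homeobox factor of neural progenitors, by -0.69 (SE 0.14, adjusted p = 0.0456) and Tenm4, a teneurin of the cell surface, by -0.38 (SE 0.08, adjusted p = 0.0456). For Tenm4 other probes read 0.01 and 0.40 (unadjusted p = 0.0131), so it has no settled direction. Without background correction Lipt2 and Dbx1 differed by -0.26 and -0.22.

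Set beside Het heads, which share beadchip 1 with CM-Het, these genes differed as follows. Mogat2 read -0.75, Myo7a -0.77, Coa4 -0.63, Mrpl48 -0.57, Lipt2 -0.46, Dbx1 -0.32, Tenm4 -0.18 and Idh2 -0.07 in CM-Het against Het, none of them called. In CM-CKO against Het the values were -0.50 for Mogat2, -0.40 for Coa4, -0.29 for Mrpl48, -0.17 for Dbx1, -0.15 for Myo7a, -0.10 for Lipt2, -0.05 for Tenm4 and 0.34 for Idh2. Idh2 thus went the other way there, and its difference between the pairs was called (log2 -0.78, SE 0.11, adjusted p = 0.00589). CM-CKO heads carry the same Mesp1Cre allele as CM-Het heads. Whether alleles linked to the Mesp1 locus differ between the strains in the mix was not tested.

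Of the closest neighbours of Mesp1, 1 was called. Of the 25 tested genes on each side, 29 of 50 were lower (median log2 -0.11, beside -0.02 for all genes), and 10 were lower at an unadjusted p under 0.05, beside 8.4% of all genes. Those of smallest p after Idh2 were Nr2f2, a nuclear receptor of veins and mesenchyme (log2 -0.73, adjusted p = 0.0644), Furin, a proprotein convertase (-0.40, adjusted p = 0.073), and Rccd1 (-0.39, adjusted p = 0.0889). None of these 3 passed. The 50 tested genes at places 51 to 100 after Mesp1, a window picked after the calls were seen, hold the 6 genes from Tenm4 to Mrpl48 named above (0.228% of all genes were called lower) and had a median of -0.03.

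**Figure D3:**
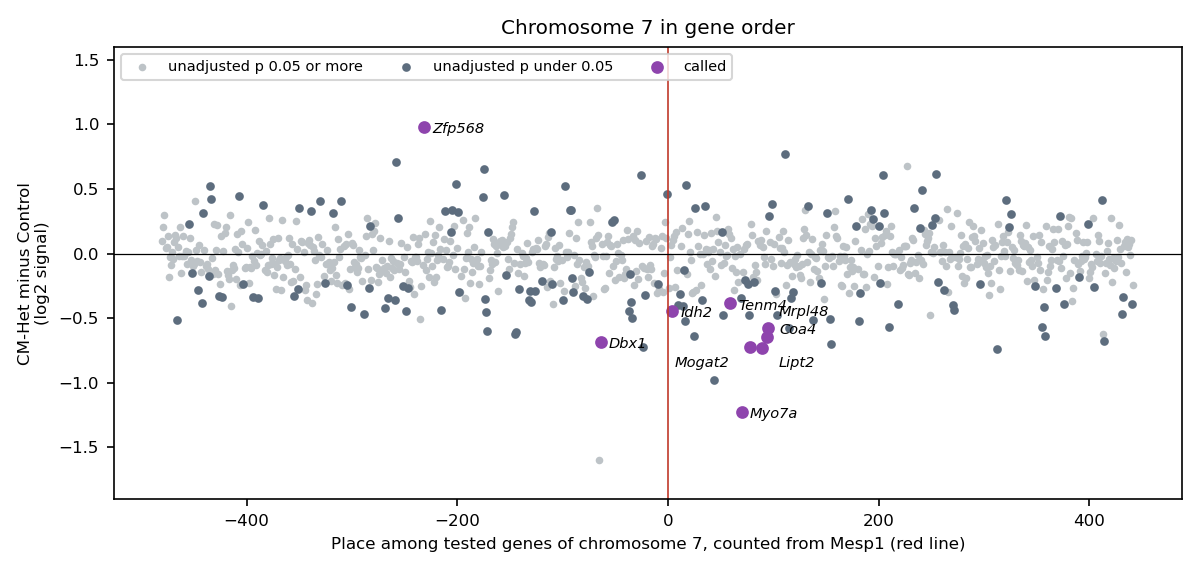
Log2 difference of CM-Het from Control (y axis) for the tested genes of chromosome 7 in gene order, counted from Mesp1 (x axis, Mesp1 at the red line), with called genes in purple and genes at an unadjusted p under 0.05 in dark grey. Of 9 called genes, 6 stand 59 to 95 genes after Mesp1, all lower in CM-Het, with Myo7a the lowest of the called genes at -1.23.

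Among the remaining genes called lower, Fhod3, a formin of heart muscle sarcomeres, had a log2 signal of 5.26, 5.47 and 5.30 in CM-Het and 6.22, 5.96, 6.03 and 6.13 in Control (log2 -0.74, SE 0.13, adjusted p = 0.0296). Its Control arrays of high heart signal, 1 and 3, and of low heart signal, 2 and 4, all lay above the CM-Het arrays. A second probe of Fhod3 read -0.19. On the authors' log2 scale, without background correction, Fhod3 differed by -0.28. With heart signal as a covariate it read -0.72 and was not called (limma adjusted p = 0.062). Mog, a protein of myelin, and Top2b, a topoisomerase, were detected on 0 of 3 CM-Het arrays and on all 4 Control arrays. A probe below background gives only a bound, and its size depends on the background correction. On the background-corrected scale they fell at least 1.23-fold and at least 1.45-fold (limma adjusted p = 0.0456 and 0.048). On the authors' log2 scale, without that correction, they differed by -0.23 and -0.20 (limma adjusted p = 0.0453 and 0.0602). In CM-CKO against Het, Fhod3 read 0.10, and its difference between the pairs was called (log2 -0.84, adjusted p = 0.0412). That difference holds the contrast Fhod3 was called on and so is no independent test. Mog and Top2b read 0.21 and 0.22 in CM-CKO against Het. With CM-Het at background the size of their difference between the pairs is not measured.

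The 21 genes called higher in CM-Het included histone, zinc-finger and growth factor genes. H2bc18 and H2bc21, both histone H2B genes, and H3c7, a histone H3 gene, were among the 6 largest increases. H2bc18 had a log2 signal of 6.50, 5.57 and 5.31 in CM-Het, against 4.94, 4.84, 4.57 and 4.53 in Control (log2 1.07, SE 0.22, adjusted p = 0.0456), with CM-Het 1 far above the other 2. H2bc21 was at 10.42, 9.64 and 9.74 in CM-Het and 9.22, 9.01, 9.31 and 9.09 in Control (log2 0.78, SE 0.15, adjusted p = 0.0456). H3c7 was at 10.63, 9.99 and 10.17 in CM-Het and 9.57, 9.54, 9.64 and 9.65 in Control (log2 0.66, SE 0.14, adjusted p = 0.0456). CM-Het 1 was again highest, and without it the 3 genes differed by 0.72, 0.53 and 0.48. A second probe read -0.18 for H2bc21 and -0.41 for H3c7. Histone genes of one type are near-identical in sequence, so probes may read several of them.

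Over the 47 tested histone genes of the H2A, H2B, H3 and H4 clusters, a set picked after these calls were seen, 39 were higher in CM-Het than in Control (median log2 0.37). Of them 25 were higher at an unadjusted p under 0.05 (7.43% of all genes) and 0 lower, and for 14 all CM-Het arrays lay above all Control arrays (29.8%, beside 6.91% of all genes). In CM-CKO against Het the median was -0.31, with 39 of the 47 lower. Between CM-Het and Het, both on beadchip 1, it was -0.03, and between Het and Control, on beadchips 1 and 2, it was 0.39. Histone signal was thus high on both genotypes of beadchip 1, with or without Mesp1-Cre, and here the part of the beadchip was not tested.

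Zfp568, a KRAB zinc-finger repressor needed in early embryos, was detected on all CM-Het arrays and on 0 of 4 Control arrays, at 5.00, 5.71 and 5.22 in CM-Het and 4.25, 4.29, 4.43 and 4.35 in Control. On the background-corrected scale it was at least 1.48-fold higher (limma adjusted p = 0.0296), while a second probe read -0.06. Sall4, a zinc-finger factor of pluripotent and early embryonic cells, had 12.30, 12.28 and 12.10 in CM-Het and 11.68, 11.88, 11.60 and 11.77 in Control (log2 0.50, SE 0.08, adjusted p = 0.0296), with 0.03 and 0.19 from 2 other probes. Pdgfa, a growth factor ligand for the PDGF receptor of mesenchyme, had 10.80, 10.89 and 11.02 in CM-Het and 10.33, 10.63, 10.58 and 10.58 in Control (log2 0.37, SE 0.08, adjusted p = 0.0474). Control 1 stood apart below the other Control arrays for Pdgfa. In all 3 genes every CM-Het array was above every Control array.

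Of the other increases, Riox1, a ribosomal oxygenase, had 10.53, 10.62 and 10.54 in CM-Het and 10.04, 10.19, 10.18 and 10.22 in Control (log2 0.41, SE 0.06, adjusted p = 0.0223). Its groups were tight and well apart, but a second probe read -0.06 (SE 0.07). Nudt1, which removes oxidized nucleotides, rose by 0.50 (adjusted p = 0.0456), Rasd2, a small GTPase, by 0.64 (adjusted p = 0.0456), Aifm1, a mitochondrial oxidoreductase, by 0.47 (adjusted p = 0.0456), and Scrn3 by 0.81 (adjusted p = 0.0456; detected on 1 of 4 Control arrays). Fmnl2, a formin, rose by 0.39 (adjusted p = 0.0474), Clip1, a microtubule plus-end protein, by 0.35 (adjusted p = 0.0378), Tmem88, an inhibitor of WNT signalling, by 0.37 (adjusted p = 0.0456) and Gm7609 by 0.74 (adjusted p = 0.0475). Other probes of Aifm1 (-0.14), Clip1 (-0.0582 and -0.00319) and Tmem88 (-0.0657) read the other way without passing. A second probe of Fmnl2 read only 0.03 (SE 0.14). On the authors' log2 scale the dim genes differed less, with 0.37 for H2bc18, 0.33 for Zfp568, 0.25 for Rasd2, 0.24 for Scrn3 and 0.48 for Gm7609.

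**Figure D4:**
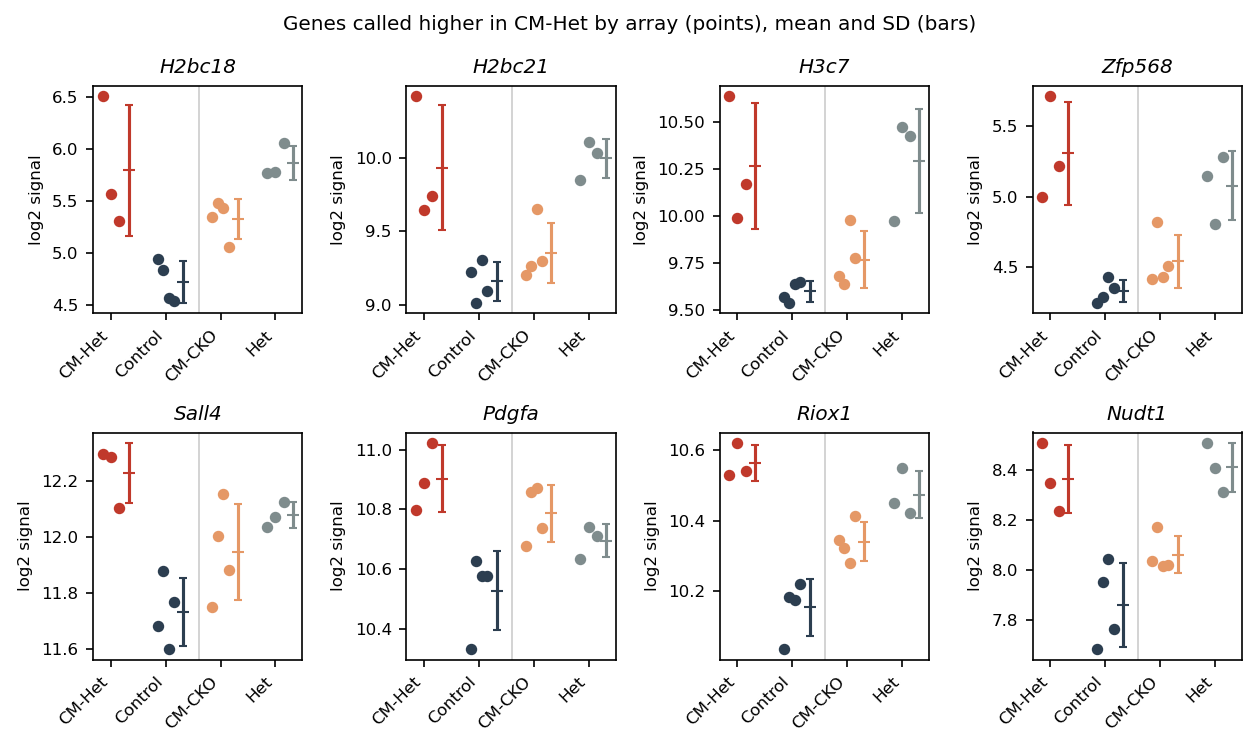
Log2 signal (y axis) of 8 genes called higher in CM-Het on each array (points), with mean and SD (bars), in CM-Het and Control left of the grey line and CM-CKO and Het right of it. All 3 CM-Het arrays lie above the 4 Control arrays for each gene, while the mean of CM-CKO lies below that of Het, which lacks Cre, for every gene but Pdgfa.

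In the pair CM-CKO against Het most of these genes read below 0. Of the 21 genes called higher, 18 were lower in CM-CKO than in Het, 13 of them at an unadjusted p under 0.05 (4.04% of all genes), and 0 were higher at that level. The difference between the pairs, which holds the contrast these genes were chosen on and so is no independent test, was called for 15 of the 21 (1% of all genes), among them H2bc21 (log2 1.42), H3c7 (1.19), Sall4 (0.63) and Riox1 (0.54). Zfp568, Scrn3 and H2bc18 were also among them, with Control signals detected on 0, 1 and 2 of 4 arrays, so the sizes of their differences are uncertain. Of the 26 genes called lower, 9 had a called difference. Pdgfa read 0.09 in CM-CKO against Het, and its difference between the pairs did not pass (log2 0.28, adjusted p = 0.23).

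Within beadchip 1, where CM-Het and Het lie together, limma called 0 of 11394 genes between these genotypes (451 at an unadjusted p under 0.05, and 0 called without a trend in the variance). This pair shares the CM-Het arrays with the comparison above and differs from it by the deleted Twist1 allele of Het. The 26 genes called lower in CM-Het against Control had a median of -0.33 in CM-Het against Het, with a range of -0.77 to 0.06, and of -0.35 in Het against Control. The 21 called higher had a median of 0.10 in CM-Het against Het, with a range of -0.07 to 0.35, and of 0.29 in Het against Control. Twist1 itself read 0.06 between CM-Het and Het. CM-Het has 1 intact copy in the marked cells and both copies in all others, while Het, without Cre, has 1 in every cell. Of the genes shown array by array with Twist1, Alx4 read -0.73 (SE 0.20), Scarf2 -0.53 (SE 0.16), Lima1 -0.46 (SE 0.11), Col6a1 -0.40 (SE 0.18), Pcolce -0.34 (SE 0.16), Pdlim4 -0.33 (SE 0.12) and Serpinf1 -0.32 (SE 0.14), none called. In Het against Control, without Mesp1-Cre, Col6a1 read -0.75, Serpinf1 -0.56, Pcolce -0.39, Scarf2 -0.35, Alx4 -0.27, Pdlim4 -0.23 and Lima1 -0.17, none called. Twist1 read -0.72 there and was not called either. The parts of beadchip and genotype in these values were not tested.

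Gene lists for the tissues and pathways of the head are described by their counts and medians, beside a median of -0.02 for all genes. Their members were chosen with earlier results of these data known, so the counts are no independent test of a tissue. Of all 11394 genes 6154 were lower, 8.4% were lower and 7.43% higher at an unadjusted p under 0.05, and 0.228% were called lower. Of 20 measured head mesenchyme transcription factors 16 were lower in CM-Het (median log2 -0.15), and 1, Alx4, was called. All CM-Het arrays lay below all Control arrays for 6 of them, beside 7.57% of all genes. Snai2, a factor of mesenchymal transition, differed by -0.39 (adjusted p = 0.155) and Zeb1, a repressor of epithelial genes, by -0.19 (adjusted p = 0.296). Of 34 extracellular matrix genes 28 were lower (median -0.19), 9 at an unadjusted p under 0.05 and 1 higher at that level, with Col6a1 and Pcolce called and Col5a1, a fibrillar collagen chain, at -0.44 (adjusted p = 0.097). Of 19 genes of the mesenchymal state 14 were lower (median -0.20), with Scarf2, Lima1 and Pdlim4 called. The mean signal of the matrix list was 7.71, 7.74 and 7.69 in CM-Het, against 8.07, 7.89, 7.93 and 7.78 in Control, and that of the mesenchymal list 7.36, 7.37 and 7.27 against 7.70, 7.46, 7.63 and 7.45. Control 1 was highest in both. Without Control 1 and Control 3 the median was -0.07 for matrix, -0.09 for mesenchyme factors and -0.17 for the mesenchymal state.

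Other mesodermal lists held 0 called genes apart from Twist1 among its own partners (10 measured, 6 lower, median log2 -0.12). Tcf12, an E protein partner, differed by -0.26 (adjusted p = 0.315) and Id1, an inhibitor of such pairs, by 0.22 (adjusted p = 0.349). Of 27 endothelial genes 20 were lower (median -0.21), 9 at an unadjusted p under 0.05 (8.4% of all genes), and 3 were higher at that level (7.43%). Cdh5, the cadherin of vessel walls, differed by -0.42 (adjusted p = 0.148), while Esm1, a marker of vessel tips detected on 2 of 4 Control arrays, differed by 0.66 (adjusted p = 0.145) and Etv2, a driver of the endothelial lineage, by 0.34 (adjusted p = 0.188). Branchiomeric and pharyngeal mesoderm had a median of -0.01 over 11 genes, with Mef2c at -0.61 (adjusted p = 0.265) and Isl1 at 0.37 (adjusted p = 0.17), while Msc was detected on 0 of 3 CM-Het arrays and 3 of 4 Control arrays (adjusted p = 0.215). Cell-matrix and guidance receptors had a median of 0.02 over 22 genes, with the integrins Itga6 at -0.65 (adjusted p = 0.0572), Itga9 at -0.40 (adjusted p = 0.0628) and Itga5 at -0.40 (adjusted p = 0.144). No integrin passed.

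Heart muscle genes had the most negative median, -1.12, with 19 of 20 lower and 0 called. The sarcomere protein gene Actn2 differed by -1.58 (SE 0.65, adjusted p = 0.255) while Nppa, the atrial natriuretic peptide, was detected on 0 of 3 CM-Het arrays and 2 of 4 Control arrays (adjusted p = 0.26). This rested on Control 1 and Control 3, without which the median was 0.06. Yolk sac endoderm genes had a median of -0.28 over 14 genes, with a mean signal of 6.46, 6.65 and 6.30 in CM-Het, against 7.78, 6.33, 6.68 and 6.26 in Control, and the median was 0.12 without Control 1. With the heart signal as a covariate 15 genes were called, 11 of them among the 47. Twist1 (log2 -0.67, adjusted p = 0.0482), Col6a1 (-1.01, adjusted p = 0.0359), Serpinf1, Alx4 and Pdlim4 were called in that fit, and Scarf2, Lima1 and Pcolce were not. With the yolk sac signal as a covariate 49 genes were called, 35 of them among the 47. In the heart covariate fit the medians of matrix, mesenchyme factors and mesenchymal state were -0.12, -0.16 and -0.22.

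Lists of other tissues and cell types had medians between -0.14 and 0.14. Neural tube genes had a median of -0.01 over 25, neural crest genes -0.14 over 13, surface ectoderm -0.08 over 13 and the epithelial state 0.09 over 16, with 0 called in each. Ednrb, an endothelin receptor of neural crest, differed by -0.56 (adjusted p = 0.209) and Rax, an eye field factor, by 0.40 (adjusted p = 0.236). Gut endoderm genes had a median of 0.14, with 11 of 13 higher and all CM-Het arrays above all Control arrays for 4 (6.91% of all genes), and placodes and early neurons a median of 0.12, with 11 of 14 higher and 4 likewise. Elavl3, an RNA-binding protein of new neurons, differed by 0.74 (adjusted p = 0.0644), Nkx2-3, a homeobox factor of the pharynx, by 0.39 (adjusted p = 0.104) and Gata3, a factor of ear and ectoderm, by 0.39 (adjusted p = 0.141). The mean signal of the placode list was 6.71, 6.81 and 6.75 in CM-Het, above 6.57, 6.59, 6.56 and 6.59 in Control. Without Control 1 and Control 3 the medians were 0.30 for gut endoderm, 0.07 for placodes and -0.13 for endothelium. Primitive erythroid cells had a median of 0.07 over 15 genes and myeloid cells -0.14 over 5.

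The signalling and state lists likewise held 0 called genes. Medians were -0.12 for WNT, -0.05 for NOTCH, -0.04 for hedgehog, 0.05 for FGF, 0.08 for BMP and TGF-beta, -0.19 for retinoic acid and anterior Hox genes and -0.07 for IGF and imprinted growth genes. Jag1, a NOTCH ligand, differed by -0.53 (adjusted p = 0.0751), Igfbp5, an IGF binding protein, by 0.34 (adjusted p = 0.0889), Axin2, a WNT feedback target, by -0.23 (adjusted p = 0.148), Chrd, a BMP antagonist, by 0.42 (adjusted p = 0.149) and Cyp26a1, which degrades retinoic acid, by 0.48 (adjusted p = 0.16). Cell division had a median of -0.03, p53 targets -0.02, hypoxia and glycolysis 0.01 and immediate early and heat shock genes -0.16. None of these genes passed the test.

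**Figure D5:**
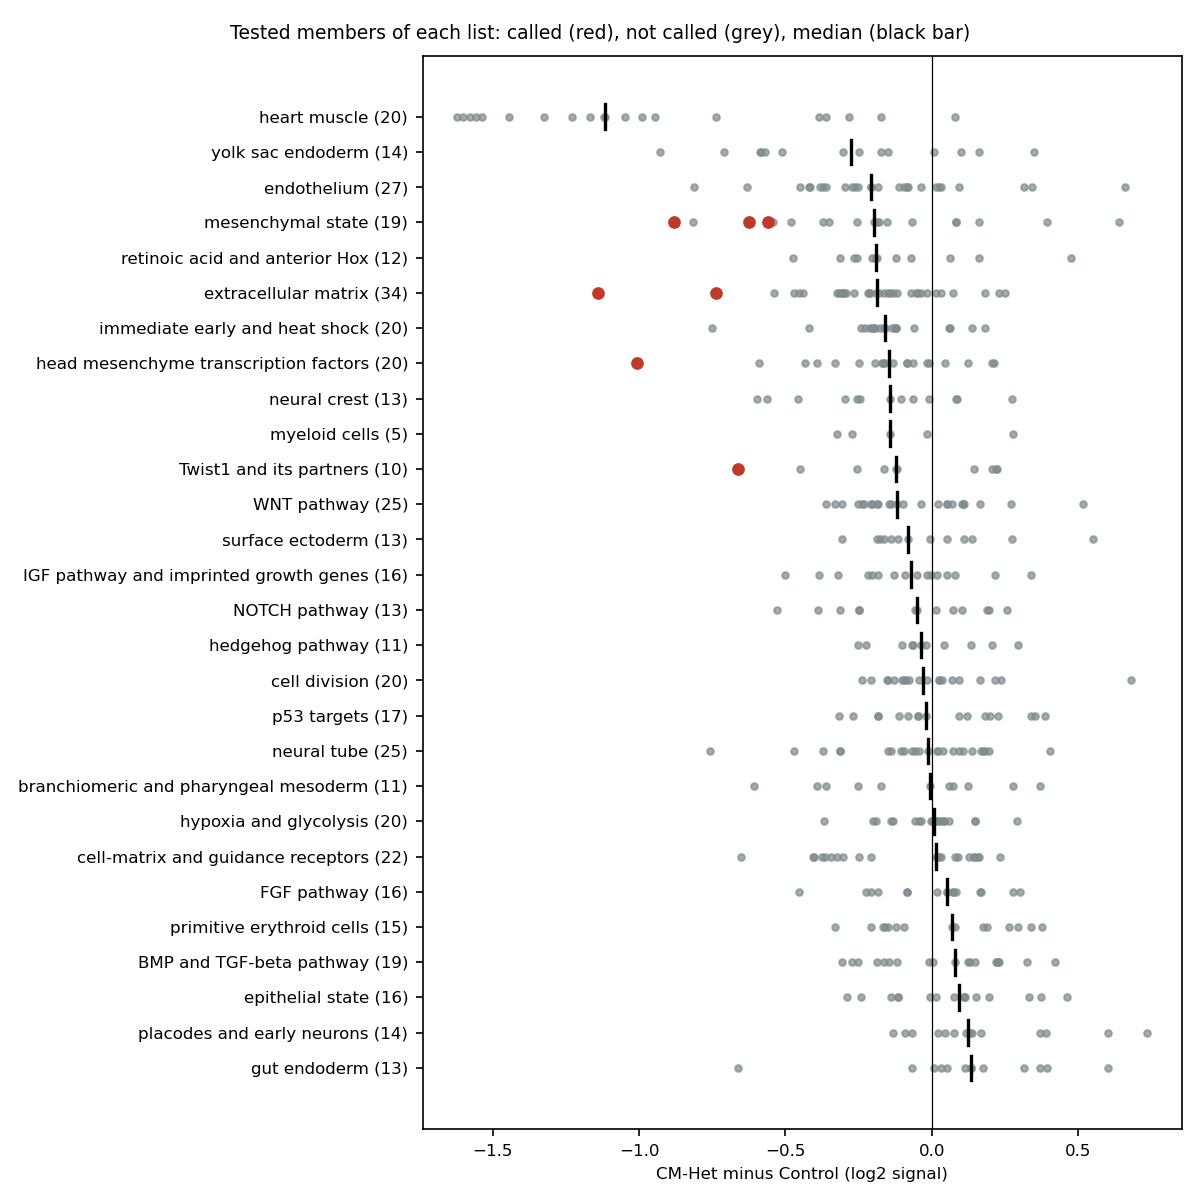
Log2 difference of CM-Het from Control (x axis) for the tested members of each gene list but that of X and Y linked sex genes. Rows are lists (number tested in brackets), with called genes in red, others in grey and the list's median as a black bar. The heart muscle median is -1.12, those of the mesenchyme and matrix lists lie between -0.20 and -0.15, and called genes stand in 4 lists. Yolk sac endoderm (-0.28) and endothelium (-0.21) lie lower than the mesenchyme and matrix lists. Retinoic acid and anterior Hox genes (-0.19) and immediate early and heat shock genes (-0.16) lie among them. List members were chosen with earlier results of these data known.

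A further detected probe existed for 27 of the 47 called genes, 33 such probes in all. Of these, 16 read the same direction, 8 at an unadjusted p under 0.05, among them those of Col6a1, Lima1 (-0.43), Lipt2, Mogat2, Mrpl48 and Serpinf1. Probes of Rbm14, an RNA-binding protein (0.61 beside -0.60), and of Tenm4 read the opposite way at that level. Neither gene therefore has a settled direction. Rbm14 was picked here after its values were seen.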

How the data were processed

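RNA of mouse embryo heads was biotin-labelled, per the labels' protocols, and hybridised on bead arrays made by Illumina. The deposited intensity is a linear value per probe with a detection p-value beside it, per the file headers. How bead signals were summarised is not given in the sources used here. Another deposited table holds log2 values by the authors (median 6.72), within 0.0329 of quantile-normalized log2 intensities without background correction, and was used only as an alternative setting.

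Detection p-values as deposited are not on the rows of their intensities (rank correlation -0.105 to -0.0946), so each array's p-values were put back in the order of its intensities. The values so restored occur as 1 deposited row for 45259 of 45281 probes. Intensities were processed with neqc (limma 3.58.1, R 4.3.3, offset 16) and the negative controls were inferred from these p-values. Probes with p under 0.05 on at least 3 arrays were kept (17991 with 1 gene symbol in the platform annotation, 21100 in all), and the brightest per gene was tested. Symbols were checked against RefSeq (GRCm38.p6), which also gave gene order and promoters. The 4 genotypes' means were estimated on all 14 arrays with lmFit and eBayes (trend), which was tested on simulated data. The contrasts were CM-Het minus Control, CM-CKO minus Het, their difference, CM-Het minus Het, and Het minus Control. Named genes are Twist1, Twist2, Mesp1 and Mesp2, the 15 largest calls in each direction, called members and the 3 smallest p of each of 29 lists, and the 5 largest calls in each direction of CM-CKO against Het. Further genes are named where the text says so. Members and lists were chosen with earlier results of these data known. The number of arrays limits the precision.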

Additional observations from a re-analysis of the deposited data

Results flagged for a closer look

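The difference between CM-Het against Control and CM-CKO against Het was called by limma for 30 of 120 genes examined, being those named by rule or called, beside 114 of all 11394 genes (1%). Most of the 120 were chosen on 1 of the 2 contrasts that make up the difference, which raises this count. A positive log2 difference means a higher value in the CM-Het pair. It was 1.61 for H2bc18, 1.52 for Zfp568, 1.42 for H2bc21, 1.27 for Scrn3, 1.19 for H3c7, 0.93 for Rasd2, 0.85 for Nudt1, 0.63 for Sall4, 0.59 for Tmem88, 0.54 for Riox1 and 0.52 for Clip1, all called higher in CM-Het. The fitted values of H2bc18, Zfp568 and Scrn3 have no exact size or rank, since the Control arrays were above background on 2, 0 and 1 of 4. Among genes called lower it was -0.89 for Mog, -0.89 for Top2b, -0.84 for Fhod3 and -0.78 for Idh2. Those of Mog and Top2b likewise have no exact size, with 0 of 3 CM-Het arrays above background. For matrix and mesenchyme genes it was 1.79 for Bgn, 1.59 for Lum, 1.22 for Ebf3, 0.96 for P4ha2, 0.89 for Cd248, 0.85 for Tgfbi and 0.74 for Vegfc. All 7 lay below 0 in CM-CKO against Het, while in CM-Het against Control P4ha2 (0.29) and Bgn (0.02) lay above it. It was -1.25 for Vps4b, -1.22 for Cyp1b1, -1.04 for Gdnf, -0.996 for the integrin Itga6, -0.92 for the NOTCH ligand Jag1 and -0.72 for the neural factor Nkx6-1, and 0.62 for Tfap2c and 0.59 for Mcm7. A shift between beadchips 1 and 2 enters this difference from both pairs, and beadchip and genotype cannot be told apart in it.

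In the 4 Control arrays, 1 array stood apart from the others for 7 of the 120 genes and 1 of 29 list means, where its gap divided by the range exceeded Dixon's 95% critical value. Chance flags about 1 in 20 groups. Control 4 was low for Myo7a (ratio 0.911) and P4ha2 (0.847) and high for Id1 (0.923). Control 2 was low for Hhip (0.959), Gdnf (0.943), Igfbp5 (0.8295) and the mean of the FGF pathway (0.854), and Control 1 was low for Pdgfa (0.834).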

How the results depend on the processing

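The 47 calls in CM-Het against Control (21 higher, 26 lower) became 25 (10 and 15, 24 of them among the 47) with quantile normalization and no background correction, 20 (9 and 11) with no filter on detection, 78 (44 and 34) over every detected probe, 8 (1 and 7) with only the 7 arrays, 23 (3 and 20) without a trend in the variance, 110 (58 and 52) with array weights and 15 (6 and 9) with heart signal as a covariate. They became 277 (157 and 120) with a random beadchip block (estimated correlation -0.0585, below 0) and 35 (14 and 21) on the authors' log2 values. Chosen after seeing the data, leaving out Control 1 and Control 3 gave 0 (0 and 0), and the deposited order of the detection p gave 38 (23 and 15). The share of higher calls was 44.7%, but 12.5% with only the 7 arrays, 13.04% without a trend, 56.7% with the random block, 56.4% over every probe and 60.5% in the deposited order. Leaving out 1 array gave 0 to 59 calls, 0 to 26 higher and 0 to 33 lower. With a replicate block 11 were called (4 and 7), and 8 of them are among the 47. Same-numbered arrays of CM-Het and Control did not deviate together. Whether arrays of the same number share a litter or a day is not given in the labels. CM-CKO against Het had 25 calls, but 40 with the random block, 42 with weights, 16 in the deposited order and 13 to 26 leaving out 1 array. The difference between the pairs had 114, but 197 over every probe, 714 with the random block, 20 with the replicate block, 175 with weights, 47 without Control 1 and Control 3, and 22 to 96 leaving out 1 array. CM-Het against Het stayed at 0 under all alternatives run. Twist1 missed the threshold with only the 7 arrays (log2 -0.66, adjusted p = 0.0627), with the replicate block (-0.66, adjusted p = 0.0594) and without Control 1 and Control 3 (-0.64, adjusted p = 0.111), and ranged from -0.74 to -0.59 leaving out 1 array. The median of the neighbours of Mesp1 was -0.0415 on the authors' values and with quantile normalization, and -0.11 to -0.0538 leaving out 1 array. Among the genes named by rule or on chromosome 7, the second brightest probe turned the sign of Pdlim4 (0.0383), Clip1 (-0.0582), Tmem88 (-0.0657), Riox1 (-0.0569), Aifm1 (-0.14), H3c7 (-0.41), H2bc21 (-0.18), Zfp568 (-0.0628) and Tenm4 (0.00584). Another probe also turned that of Rab43 (0.27), Lsg1 (0.17), Rprd1a (-0.20), Nudt21 (-0.10) and Rbm14 (0.61), and a further one that of Lsm1 (-0.09). The deposited order, which can pick another probe, turned Pdlim4 (0.0383), Riox1 (-0.0569) and H2bc21 (-0.18). The causes of these changes were not tested. Probes near background limit the precision of dim genes.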

Other observations

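A further 3109 detected probes carry no gene symbol or several in the platform annotation, and so stand outside the 11394 genes. They were fitted on their own, with the adjusted p taken over these probes only, so their calls have another threshold. Limma called 35 of them in CM-Het against Control, 29 higher and 6 lower, beside 47 of the 11394 genes (0.412%). An unadjusted p under 0.05 was found for 624 of these probes, beside 1804 of the 11394 genes. Their identity was not analysed here.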
